A study of Rattus norvegicus with 5 samples.

Results

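Myocytes in which a TBX18 transgene transcript was detected were compared with myocytes of the same culture in which none was. The comparison was made separately in 2 day 14 libraries of neonatal rat ventricular cells given Adeno-TBX18, one without and one with A83-01. Values were turned back from the log scale to CPM, the UMIs of a gene relative to all UMIs of the cell, scaled to the same sum in every cell. A UMI, or unique molecular identifier, is the tag of 1 captured RNA molecule. A cell was taken as a myocyte where the summed CPM of Tnnt2, Actc1 and Myh6 was more than 2 times the summed CPM of Col1a1, Col1a2 and Col3a1. It was called positive with at least 1 UMI of hTBX18 or ZsGFP, and negative with both at 0. This gave 169 positive and 918 negative myocytes among 8337 cells without the inhibitor, and 328 positive and 2124 negative myocytes among 7618 cells with it. The members were thus chosen by the measured levels of hTBX18, ZsGFP and these 6 genes, and their values are given as a description. They are 497 positive cells among 3539 myocytes of both libraries, out of 38019 cells in the series.

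All cells came from wild type Sprague dawley rats at P2, as a primary mixture of ventricular myocytes and non-myocytes. They had received Adeno-TBX18, either alone, for 14 days by the treatment label, or with A83-01, an inhibitor of TGF-beta type I receptors, at 0.2 µM. The title and description of the sample with A83-01 place it at day 14 and its treatment label gives 3 days. How long that sample was exposed to virus and inhibitor is therefore not settled here. An Adeno-GFP library of day 14, read by its EGFP feature, and an Adeno-TBX18 library of day 3 were used to set values beside those of the members. Every culture had received an adenovirus, and whether cells of several animals were pooled is not given in the sources used here. Each group had 1 library, so no difference has a replicate check and no p-value is given. Intervals are exact 95% intervals that cover counting error only.

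TBX18 is a T-box transcription factor that acts mainly as a repressor and is needed in the embryo to form the sinus venosus and the head of the sinoatrial node, the pacemaker of the heart. Forced expression of TBX18 in ventricular myocytes is studied as a way to make them resemble pacemaker cells, the question that the series title names. T-box proteins bind DNA through a short core element, and ZsGFP is a green fluorescent reporter. Working myocytes carry the sarcomere genes Tnnt2 (cardiac troponin T of the thin filament), Actc1 (cardiac alpha-actin) and Myh6 (alpha-myosin heavy chain).

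Promoter windows are shown for Actc1 and Tnnt2 because both genes had lower levels in positive than in negative myocytes of both libraries. The Tnnt2 window shown is the one with a match to a T-box core, and lies downstream of another Tnnt2 window without a match. The windows run from 250 bases before to 50 bases after a RefSeq start in the build GRCr8. They are printed from 5′ to 3′ on the strand of the gene in lower case, with the letters of the T-box core GGTGTGA in capitals.
Actc1: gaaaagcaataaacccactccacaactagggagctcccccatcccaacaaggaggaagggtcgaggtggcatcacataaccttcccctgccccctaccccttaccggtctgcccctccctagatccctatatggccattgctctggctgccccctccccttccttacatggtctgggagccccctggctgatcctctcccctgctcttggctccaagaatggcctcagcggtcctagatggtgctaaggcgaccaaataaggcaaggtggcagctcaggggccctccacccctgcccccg
Tnnt2: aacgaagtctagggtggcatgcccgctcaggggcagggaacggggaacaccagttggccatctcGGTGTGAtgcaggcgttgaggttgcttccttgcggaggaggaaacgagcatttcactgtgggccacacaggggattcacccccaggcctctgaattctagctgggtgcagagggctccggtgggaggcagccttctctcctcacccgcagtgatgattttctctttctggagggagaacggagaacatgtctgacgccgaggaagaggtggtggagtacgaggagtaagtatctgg
The Actc1 window lies at chr3:121271778-121272077 on the minus strand and holds neither GGTGTGA nor its reverse complement TCACACC. The Tnnt2 window at chr13:49823809-49824108 on the plus strand holds GGTGTGA on the strand of the gene, starting at base -186 relative to the start. No match was present in the other Tnnt2 window (chr13:49818873-49819172), in that of Myh6 (chr15:32411648-32411947, minus strand) or in that of Col1a2 (chr4:33518307-33518606). Of 33469 windows of the same length, 1282 (3.83%) hold the core on either strand. A match is a string of letters, not a measured binding site.

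Transgene transcripts were sparse and were found more often in myocytes than in collagen-rich cells. Without A83-01, 15.5% of myocytes (13.4 to 17.8) had a transgene UMI at a median depth of 15473 UMIs. In collagen-rich cells, those in which the collagen sum was more than 2 times the myocyte sum, 2.23% (1.90 to 2.61) had one at a median depth of 15502 UMIs. With A83-01, the share was 13.4% of myocytes (12.1 to 14.8) at 19706 UMIs and 2.45% of collagen-rich cells (2.03 to 2.92) at 16547 UMIs. After every cell was thinned to 5000 UMIs, the shares were 5.98% and 0.968% without A83-01 and 4.69% and 0.850% with it, and 4 shallower collagen-rich cells were left out of the former library. The share in collagen-rich cells includes any free RNA in the droplets, so a positive cell cannot be taken as transduced. Nor does the absence of a transgene UMI show that a cell had not received the virus.

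**Figure D1:**
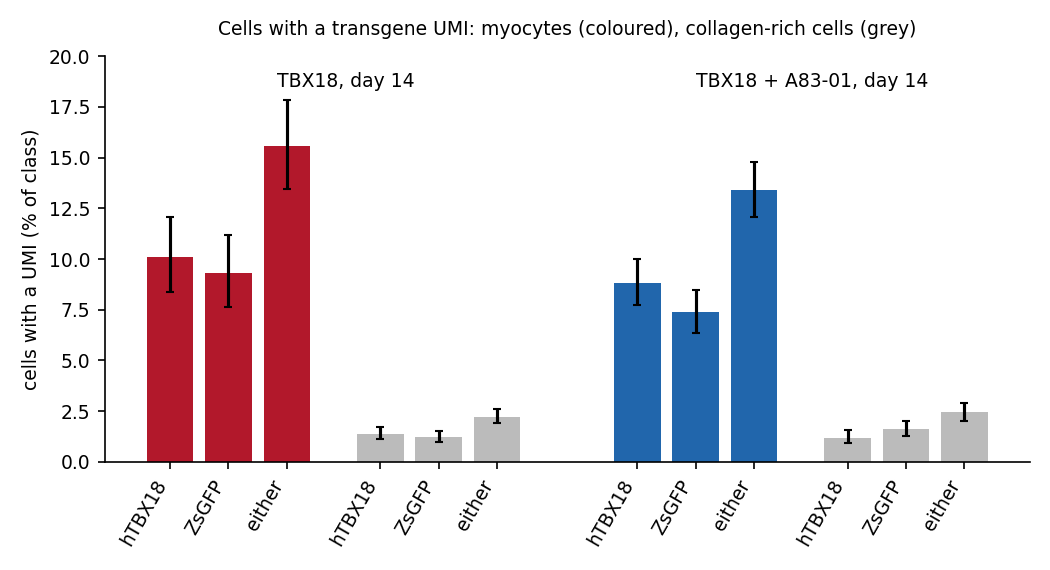
Share of cells (%, vertical axis) with a UMI of hTBX18, of ZsGFP or of either in myocytes (coloured bars) and collagen-rich cells (grey bars) of both day 14 libraries, with exact 95% intervals for counting error. Either feature was found in 15.5% and 13.4% of myocytes, against 2.23% and 2.45% of collagen-rich cells.

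Both features of the virus tended to be found in the same cells. Of 110 myocytes with an hTBX18 UMI and no A83-01, 42 (38.2%, 29.1 to 47.9) also had a ZsGFP UMI, against 59 of 977 without one (6.04%, 4.63 to 7.72). With A83-01, 69 of 216 (31.9%, 25.8 to 38.6) had both, against 112 of 2236 (5.01%, 4.14 to 6.0). Median depths were 18567 and 15201 UMIs in the former pair of classes and 22048 and 19499 in the latter, so hTBX18-positive cells were also deeper. In myocytes hTBX18 reached 9.10 CPM (7.74 to 10.6) without and 6.95 CPM (6.23 to 7.73) with A83-01, and ZsGFP reached 8.19 CPM (6.90 to 9.64) and 5.95 CPM (5.28 to 6.67).

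Most positive cells were positive by a single molecule. Of the 169 positive cells without A83-01, 106 (62.7%) had 1 transgene UMI, 33 had 2 and 30 had 3 or more, up to 6 of hTBX18 and 5 of ZsGFP. Of the 328 with A83-01, 212 (64.6%) had 1, 58 had 2 and 58 had 3 or more, up to 8 of hTBX18 and 15 of ZsGFP. By feature, 68 cells carried hTBX18 only, 59 ZsGFP only and 42 both without A83-01, and 147, 112 and 69 with it. At day 3, where 40.7% of myocytes (39.1 to 42.4) had a transgene UMI, 42.6% of the positive cells had a single one.

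Positive cells were deeper than negative ones, at medians of 17931 against 15037 UMIs without and 22392 against 19338 UMIs with A83-01. Negative cells were therefore drawn to match the depth of the positives, 2 for each, which gave 338 at a median of 17953 UMIs and 656 at 22353 UMIs. After thinning to 5000 UMIs, the median number of genes was 1850 in positive and 1809 in matched negative cells without A83-01, and 1546 and 1498 with it.

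Few genes differed by more than 1.5-fold between positive and matched negative myocytes. Without A83-01, 24 of the 2619 genes whose levels averaged 50 CPM or more over both sides (0.916%) were past 1.5-fold higher and 34 (1.3%) past 1.5-fold lower. With A83-01, 6 of 2128 genes (0.282%) were past it higher and 8 (0.376%) lower. The same rule found 0 genes higher (0.0%) and 7 lower (0.31%) of 2255 around EGFP in the Adeno-GFP library of day 14. In the day 3 library 27 of 2058 (1.31%) were higher and 29 (1.41%) lower. The EGFP and day 3 contrasts summed 690 and 1261 positive cells, against 169 without and 328 with A83-01. Their counts are therefore not like for like with those of the day 14 TBX18 libraries. Of 2079 genes that averaged 50 CPM or more in both day 14 TBX18 libraries, 0 were past the fold higher in both (0.0%) and 2 lower in both (0.0962%). Scaling by the median of ratios over genes in place of total UMIs gave 3 higher and 13 lower with A83-01, and 22 and 43 without it.

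Across genes, the log2 ratios had a standard deviation (SD) of 0.25 without and 0.16 with A83-01, where counting error alone would give 0.10 and 0.064. Counting error leaves out variation from cell to cell within a side, whose part in the SD was not tested. The SD was 0.12 around EGFP, with 0.061 from counting error, and 0.29 at day 3, with 0.032. The ratios of the day 14 TBX18 libraries had a Pearson's r of 0.48 over these 2079 genes, which is a description across genes that are not independent replicates. Against the EGFP contrast the same value was 0.29 without A83-01, over 2174 genes, and 0.23 with it, over 2002. Against day 3 it was 0.44 without A83-01, over 1919 genes, and 0.49 with it, over 1779.

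The sarcomere genes Actc1 and Tnnt2 were lower in positive myocytes by modest amounts, in a class that the rule had set by the sum of these same genes. Without A83-01, Actc1 stood at 8721 CPM in positive and 9929 CPM in matched negative myocytes, a log2 ratio of -0.19 (-0.21 to -0.17). With A83-01 it stood at 10803 CPM in positive and 12437 CPM in matched negative myocytes, -0.20 (-0.22 to -0.19). Single cells ran from 49.0 to 20306 CPM with a median of 8104 in positive cells, and from 259 to 27948 CPM with a median of 9399 in matched negative cells, without A83-01. The ranges of positive and negative cells overlapped, and the medians differed in the direction of the sums.

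Tnnt2 was lower by a like amount, at 11619 CPM in positive and 13109 CPM in matched negative myocytes without A83-01, a log2 ratio of -0.17 (-0.19 to -0.16). With A83-01 the levels were 9795 against 10989 CPM, -0.17 (-0.18 to -0.15). In single cells with A83-01 Tnnt2 ran from 197 to 21759 CPM with a median of 10049.7 in positive cells, and from 101 to 20059 CPM with a median of 11094 in matched negative cells. Around EGFP in the Adeno-GFP library, the log2 ratio of Tnnt2 was -0.01 (-0.02 to 0.002), an interval that includes 0, and that of Actc1 was -0.11 (-0.12 to -0.09). At day 3 the ratios around the TBX18 transgenes were -0.21 for Tnnt2 and -0.45 for Actc1.

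Myh6 lay on different sides of 0 in the day 14 TBX18 libraries. It stood at 10591 CPM in positive and 9797 CPM in matched negative myocytes without A83-01, a log2 ratio of 0.11 (0.09 to 0.13), and at 11063 against 11236 CPM with A83-01, -0.02 (-0.03 to -0.01). Around EGFP it was -0.09 (-0.10 to -0.08), and at day 3 -0.04 (-0.05 to -0.03).

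**Figure D2:**
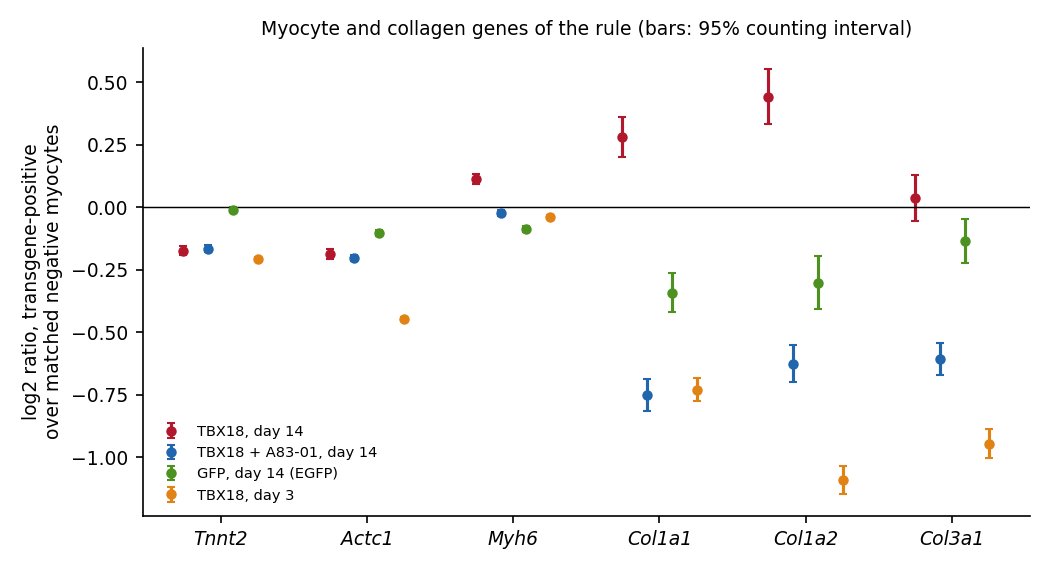
Log2 ratio of transgene-positive over depth-matched negative myocytes (vertical axis) for the 6 genes of the rule in 4 libraries (colours), with 95% counting intervals as bars. Tnnt2 and Actc1 lie below 0 in the TBX18 libraries, and Col1a1 stands at 0.28 without and -0.75 with A83-01.

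The collagen genes, which mark fibroblasts and could enter a myocyte droplet from another cell, lay higher in positive cells of one library and lower in those of the other, and this order did not hold under a stricter myocyte rule. Without A83-01, Col1a1 stood at 655 against 540.2 CPM in positive against matched negative cells, a log2 ratio of 0.28 (0.20 to 0.36), and Col1a2 at 358 against 263 CPM, 0.44 (0.33 to 0.55). Col3a1 stood at 456 against 444 CPM, 0.04 (-0.06 to 0.13), and turned to -0.012 under median-of-ratios scaling. With A83-01, Col1a1 was 349 against 587 CPM, -0.75 (-0.82 to -0.69), Col1a2 -0.63 (-0.70 to -0.55) and Col3a1 -0.61 (-0.67 to -0.54). The sums rest on a few cells: with A83-01, the median positive cell held 49.0 CPM of Col1a1 and the highest 5368, against a median of 44.8 and a maximum of 6322 in negative cells. Without A83-01, the medians were 401 against 403 CPM for Col1a1, 212 against 188 for Col1a2 and 290 against 324 for Col3a1. A second draw of matched negatives there gave 0.13, 0.20 and -0.067, each below the interval given above. In myocytes whose myocyte sum was more than 10 times the collagens, Col1a1 without A83-01 was -0.093, and with A83-01 Col1a2 was 0.163 and Col3a1 0.105. The part of collagen-bearing droplets in the results was not tested.

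The cells at the edge of the rule were few. Without A83-01, 8 positive myocytes had a ratio of the myocyte to the collagen sum of 2 to 4, the lowest at 2.11, and 15 positive cells between 1 and 2 were left out, the highest at 1.96. With A83-01 these were 21 cells, the lowest at 2.15, and 26 cells, the highest at 1.99. A ratio over 10 was held by 146 of the 169 and by 289 of the 328 positive cells. Tnnt2 was at 458 CPM and Actc1 at 171 CPM in collagen-rich cells without A83-01. These levels follow from the rule, which set both classes by the same 6 genes. Since the tables carry Ensembl IDs, other myocyte or fibroblast markers could not be matched to them, and the classes were not checked further.

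Among genes that met the minimum of 50 CPM in both libraries, the 2 past the fold in both were lower. Their names are not given in the sources used here. ENSRNOG00000008176 stood at 831 CPM in positive and 2699 CPM in matched negative myocytes without A83-01, a log2 ratio of -1.70 (-1.76 to -1.64). With A83-01 it stood at 7736 CPM in positive and 12371 CPM in matched negative myocytes, -0.68 (-0.69 to -0.66). In single cells with A83-01 it ran from 0 to 65685 CPM with a median of 4164 in positive cells, and from 0 to 64881 CPM with a median of 9398 in matched negative cells, and it had a UMI in 96.3% of positive and 97.9% of matched negative cells. Without A83-01 it ran from 0 to 24249 CPM with a median of 33.1 in positive cells, and from 0 to 84215 CPM with a median of 62.9 in matched negative cells, with upper quartiles of 103 and 719 CPM. Both upper quartiles lay below the levels of the sums, which rest on a few cells with high values. Its level in collagen-rich cells was 47.5 CPM without and 142 CPM with A83-01. It was lower also around EGFP, -0.27, and at day 3, -0.51.

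ENSRNOG00000004583 stood at 354 CPM in positive and 619 CPM in matched negative myocytes without A83-01, a log2 ratio of -0.81 (-0.90 to -0.71), and at 367 against 624 CPM with A83-01, -0.77 (-0.83 to -0.70). In single cells with A83-01 it ran from 0 to 6205 CPM with a median of 136 in positive cells, and from 0 to 6486 CPM with a median of 248 in matched negative cells. Without A83-01 it ran from 0 to 6427 CPM with a median of 136 in positive cells, and from 0 to 10100.1 CPM with a median of 124 in matched negative cells, and it had a UMI in 69.2% of positive and 70.7% of matched negative cells. The medians there lay the other way from the sums, which rest on the cells with high values. Without A83-01 this ratio was -0.60 with a second draw of matched negatives and -0.46, short of 1.5-fold, without the cells with the top 6% of doublet scores. Its ratios lay on the other side of 0 around EGFP, 0.18 (0.16 to 0.20), and at day 3, 0.09 (0.06 to 0.12). Its level in collagen-rich cells was 10.0 CPM without and 8.98 CPM with A83-01.

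Actc1, Tnnt2 and both genes past the fold lower in both libraries had ratios further from 0 in cells with more transgene molecules. The collagens without A83-01 did not. Actc1 and Tnnt2 are genes of the rule, and both IDs were chosen in these same positive cells. The split is thus a description and gives no separate support. Cells with 1 transgene UMI and cells with at least 2 were each set against negative cells of matched depth, drawn from the same pool, so their ratios share control cells and are given side by side. The former were 106 and 212 cells without and with A83-01, and the latter 63 and 116. Without A83-01, the log2 ratio of Actc1 was -0.17 (-0.19 to -0.15) with 1 UMI and -0.30 (-0.33 to -0.27) with at least 2. With A83-01 it was -0.05 (-0.07 to -0.04) and -0.51 (-0.53 to -0.49), the latter from 8711 against 12429 CPM.

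Tnnt2 showed the same order, at -0.08 (-0.10 to -0.06) and -0.32 (-0.34 to -0.29) without A83-01 and -0.06 (-0.07 to -0.04) and -0.33 (-0.35 to -0.31) with it. At day 3, cells with at least 2 transgene UMIs stood at -0.31 for Tnnt2 and -0.76 for Actc1. In 545 myocytes with at least 2 EGFP UMIs, the ratio was 0.01 (-0.01 to 0.02) for Tnnt2 and -0.12 (-0.13 to -0.10) for Actc1. EGFP stood at 163 CPM in myocytes, against 17.3 CPM without and 12.9 CPM with A83-01 for hTBX18 and ZsGFP together. The same number of UMIs thus does not pick like classes of cells. Myh6 was 0.13 with 1 UMI and 0.07 with at least 2 without A83-01, and 0.05 and -0.15 with it. Its sign thus depended on the class with A83-01. Without A83-01 the collagens lay nearer to 0 with at least 2 UMIs than with 1, at 0.06 against 0.33 for Col1a1 and 0.19 against 0.47 for Col1a2, and Col3a1 was -0.06 against 0.18. With A83-01 they lay further below 0, at -1.11 against -0.85 for Col1a1, -0.85 against -0.77 for Col1a2 and -0.95 against -0.64 for Col3a1.

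Both genes that were lower in both libraries, chosen in these same cells, were lower still in those with more transgene UMIs. ENSRNOG00000008176 was -1.20 with 1 UMI and -3.12 with at least 2 without A83-01, the latter from 317 against 2766 CPM and with 32.8% of the UMIs of the positive class in 1 cell. With A83-01 the values were -0.50 and -1.01, the latter from 6162 against 12408 CPM. ENSRNOG00000004583 was -0.32 and -1.28 without A83-01 and -0.48 and -1.37 with it. Around EGFP, ENSRNOG00000008176 was -0.34 with 1 UMI and -0.20 with at least 2, and ENSRNOG00000004583 was 0.30 and 0.17.

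ENSRNOG00000050647 and ENSRNOG00000017206 had the highest inner interval ends of the ratio in both libraries among genes past the fold in cells with at least 2 transgene UMIs, and were chosen after their values were seen. ENSRNOG00000050647 stood at 74.5 against 26.4 CPM in those cells and matched negatives without A83-01, a log2 ratio of 1.5 (1.07 to 1.92). With A83-01 it stood at 123 against 10.8 CPM, 3.50 (3.24 to 3.77). With 1 UMI the ratios were 0.26 (-0.21 to 0.70) and 0.47 (0.04 to 0.89). In all positive cells they were 1.07 (0.73 to 1.42) without and 2.10 (1.84 to 2.37) with A83-01, past 1.5-fold but under the minimum mean of 50 CPM. In the 42 and 69 cells that carried both hTBX18 and ZsGFP they were 2.02 (1.51 to 2.52) and 4.11 (3.84 to 4.39).

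Cells with a UMI of this gene were a minority, at 44.4% against 28.0% in cells with at least 2 transgene UMIs and matched negatives without A83-01, and 37.9% against 12.4% with it. The highest cell held 28.0% and 17.1% of the UMIs of ENSRNOG00000050647 in the positive class. At day 3 the class with at least 2 UMIs stood at 240.1 against 5.84 CPM, 5.36 (5.12 to 5.61), with a UMI in 50.2% against 10.4% of positive and negative cells. Around EGFP it stood at 2.72 against 4.90 CPM, -0.85 (-1.63 to -0.09), on the other side of 0. With negatives at 26.4 and 10.8 CPM, it met the minimum mean of 50 CPM only through the positive cells. In collagen-rich cells its level was 57.2 CPM without and 29.7 CPM with A83-01, above those of the negatives.

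ENSRNOG00000017206 stood at 1179 against 497 CPM in cells with at least 2 UMIs without A83-01, 1.25 (1.15 to 1.35), and at 98.1 against 29.8 CPM with A83-01, 1.72 (1.5 to 1.94). A UMI of it was found in 87.3% against 56.1% of these cells and matched negatives without A83-01 and in 30.2% against 17.2% with it. It was higher with 1 UMI too, at 0.95 and 0.69, and around EGFP, at 0.51 with at least 2 UMIs. At day 3 it lay on the other side of 0, at -0.74. With A83-01 it also met the minimum mean only through the positive cells, its level in negatives being 29.8 CPM.

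**Figure D3:**
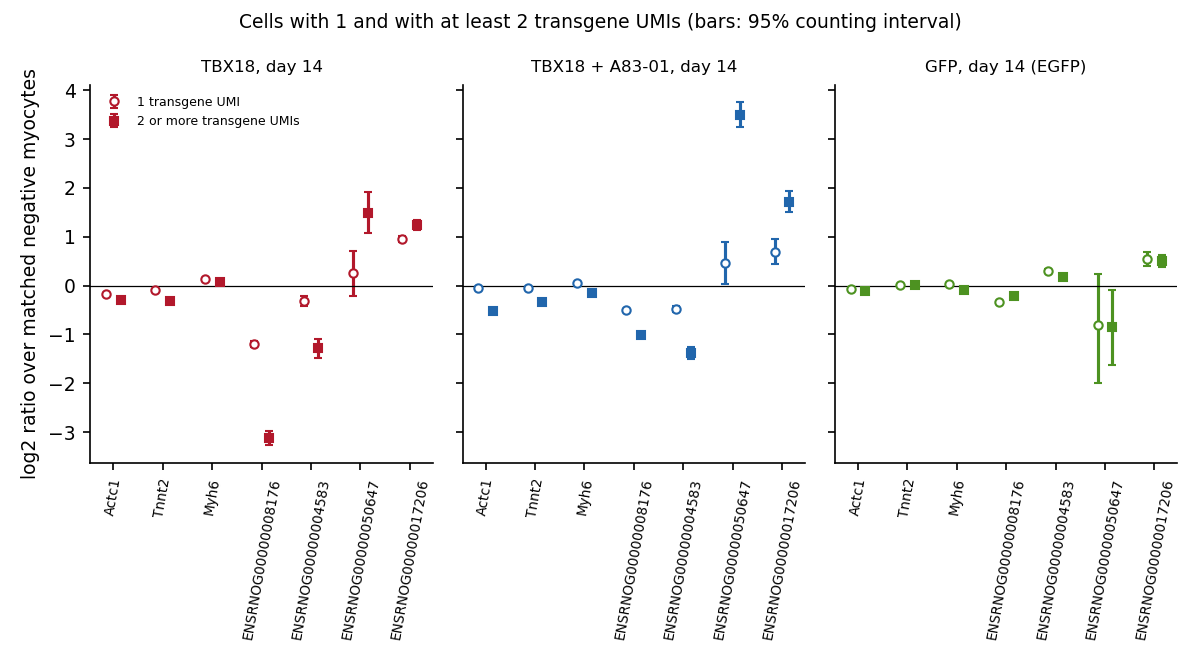
Log2 ratio over depth-matched negative myocytes (vertical axis) of sarcomere genes and 4 unnamed Ensembl IDs, in cells with 1 transgene UMI (open circles) and at least 2 (filled squares), with 95% counting intervals, in 3 day 14 libraries. Actc1 with A83-01 goes from -0.05 to -0.51, and in the Adeno-GFP library, where the transgene is EGFP, from -0.06 to -0.12.

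More genes were past 1.5-fold in cells with at least 2 transgene UMIs than in all positive cells. The former contrast summed 63 and 116 positive cells without and with A83-01, the latter 169 and 328, so these counts are not like for like. The part of the smaller number of cells in the larger counts was not tested. Without A83-01, 94 of 2629 genes (3.58%) were past 1.5-fold higher and 51 (1.94%) lower, and with A83-01 87 of 2169 (4.01%) were higher and 27 (1.24%) lower. Of 2114 genes measured in both, 20 (0.946%) were higher in both and 11 (0.52%) lower in both. In at least 1 library, 6 of the 20 and 1 of the 11 reached the minimum mean of 50 CPM only through the side on which they were high. In collagen-rich cells over negative myocytes, 15 of the 20 were higher without and 16 with A83-01. Of the 2114 genes, 42.5% and 50.6% were higher there. Of the 11, 9 and 8 were lower there, with median log2 ratios of -5.36 and -5.56, against -0.20 and 0.02 over the 2114 genes. Whether RNA of collagen-rich cells had a part in these genes was not tested. In cells with at least 2 EGFP UMIs 0 of 2262 genes (0.0%) were past the fold higher and 8 (0.354%) lower. That contrast summed 545 positive cells, against 63 without and 116 with A83-01, so the counts are not like for like. The split of higher and lower genes depended on the scaling. Median-of-ratios scaling gave 67 higher and 85 lower without A83-01, 46 and 52 with it, and 13 and 17 in both, since the median log2 ratio over genes by total UMIs was 0.07 and 0.12. The 63 positive cells without A83-01 are few, and counting error alone would give an SD of 0.15 there, against the measured 0.33. Variation from cell to cell is not in that 0.15.

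The 11 genes lower in both libraries were read in the libraries that had not chosen them. At day 3, in cells with at least 2 transgene UMIs, 10 of the 11 met the minimum of 50 CPM. Of these 9 were lower and 8 past 1.5-fold lower, with a median log2 ratio of -0.85, where 46.3% of all 2082 genes were lower, 5.19% were past it lower and the median of all was 0.02. How many of the 10 met the minimum only through the negative cells was not counted. Around EGFP all 11 met the minimum, 7 were lower and 0 past the fold, with a median of -0.07, where 57.2% of all genes were lower with a median of -0.02. When myocytes were restricted to those with a myocyte sum over 10 times the collagens, 9 of the 11 were again past the fold in both libraries, and 10 of the 11 when the cells with the top 6% of doublet scores were left out. The stricter rule kept 53 of the 63 and 101 of the 116 positive cells, and the doublet filter 62 and 112. Both settings thus reread largely the cells that had chosen the genes.

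The 20 genes higher in both did not carry over to the same degree. At day 3, 16 met the minimum, 11 of them were higher and 3 past the fold (2.83% of all genes), with a median of 0.21, where 53.7% of all genes were higher. ENSRNOG00000050647 was among these 3 and met the minimum at day 3 only through the positive cells. How many of the other genes did so was not counted. Around EGFP 13 met it, 6 were higher and 0 past the fold, with a median of -0.05, where 42.8% of all genes were higher. Of the 20, 12 were past the fold in both libraries again with the stricter myocyte rule and 13 without the top doublet scores. These too were largely the cells that had chosen the genes.

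**Figure D4:**
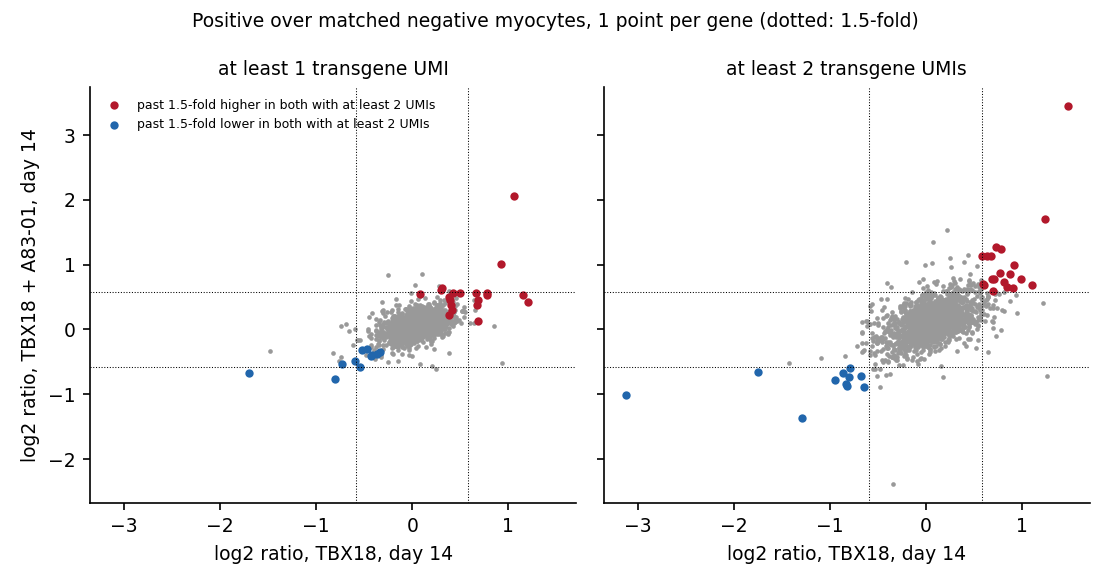
Log2 ratio of positive over matched negative myocytes without A83-01 (horizontal axis) and with A83-01 (vertical axis), 1 point per gene, for cells with at least 1 (left) and at least 2 (right) transgene UMIs, with dotted lines at 1.5-fold. Red and blue points are the 20 and 11 genes past the fold higher and lower in both libraries in the right panel, which chose them.

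Genes that differed at day 3 were also read at day 14, in cultures that had no part in choosing them. How many met the minimum at day 14 only through the side on which they were high was not counted. Of the 27 genes past 1.5-fold higher in positive myocytes of day 3, 18 met the minimum without A83-01. There 12 were higher with a median log2 ratio of 0.10, where 62.6% of all genes were higher with a median of 0.04. With A83-01, 17 met it and 16 were higher with a median of 0.29, where 67.1% of all genes were higher with a median of 0.06. Around EGFP 16 met it and 6 were higher, with a median of -0.02, where 46.2% of all genes were higher.

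Of the 29 genes past the fold lower at day 3, 19 met the minimum without A83-01 and 15 were lower, with a median of -0.30 and 6 past the fold, where 37.4% of all genes were lower and 1.3% past it. With A83-01, 14 met it and 13 were lower, with a median of -0.29 and 0 past the fold, where 32.9% of all were lower and 0.376% past it. Around EGFP 13 met it and 11 were lower, with a median of -0.09 and 3 past the fold, where 53.8% of all were lower and 0.31% past it.

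In the TBX18 libraries these medians were further from 0 in cells with more transgene UMIs. Without A83-01, the genes higher at day 3 had a median of -0.01 in cells with 1 UMI and 0.30 in cells with at least 2, and those lower at day 3 had -0.24 and -0.60. With A83-01 the medians were 0.005 and 0.71 for the former and -0.18 and -0.56 for the latter. The median over all genes tested in positive cells as a whole was 0.02 with 1 UMI and 0.07 with at least 2 without A83-01, and 0.03 and 0.11 with it. In cells with at least 2 UMIs and A83-01, 17 of 17 genes higher at day 3 were higher and 14 of 14 lower at day 3 were lower. Of all 2128 genes, 70.5% were higher and 29.5% lower in these cells. Around EGFP the medians were -0.07 and -0.02 for the former genes and -0.07 and -0.09 for the latter.

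**Figure D5:**
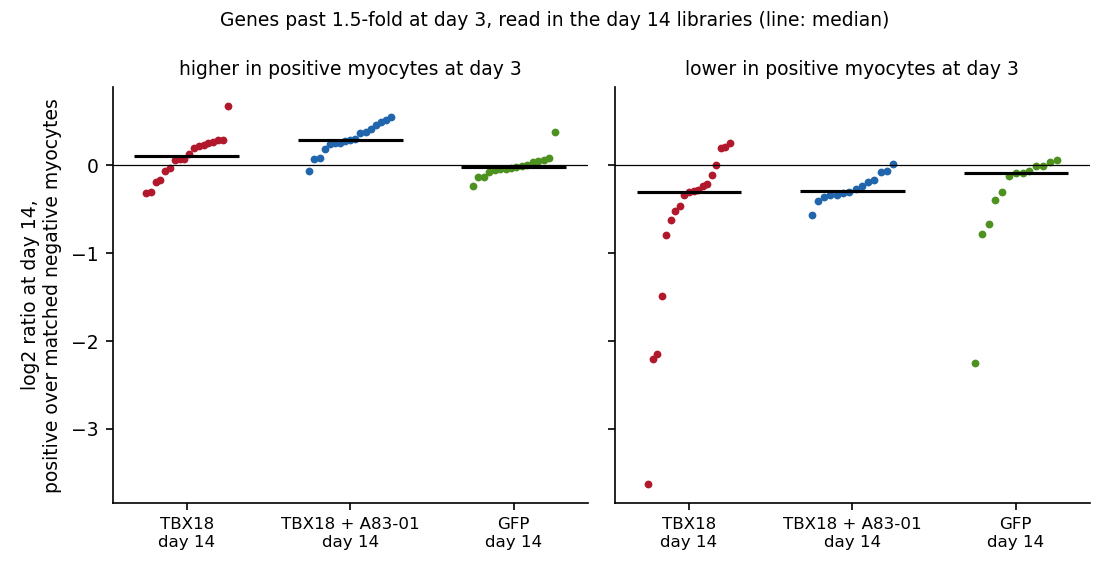
Log2 ratio at day 14 of positive over matched negative myocytes (vertical axis) for genes past 1.5-fold higher (left) or lower (right) in positive myocytes of day 3, 1 point per gene and library, with the median as a line. The medians of the left panel are 0.10, 0.29 and -0.02, and those of the right panel -0.30, -0.29 and -0.09.

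Other transgene features of the tables served as a check of the labels. EGFP had 0 UMIs in the library without A83-01, where 3 counts would be 0.0219 CPM, and 1 UMI in the library with it, in a myocyte. Dsred, hSHOX2 and hTBX3 had 0 UMIs in both, where the limit with A83-01 is 0.0215 CPM. The libraries held 137204960 and 139441824 UMIs in all, and 13 barcodes occurred in both, of which 1 was a myocyte in both.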

How the data were processed

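Cells of 5 droplet libraries (10x 3' kit) were profiled, and 2 are described here with 2 others beside them. Reads had been processed with Partek and STAR 2.7.8a on Rnor_6.0, per the submitters' processing notes, which give no role or order. The authors deposited day 14 tables on a log2 scale, as CPM plus 1 within a cell, judging from the values: each cell summed to between 999991 and 1000009 after the log was undone. The day 3 table holds estimated counts of UMIs as deposited. Those within 0.05 of a whole number were rounded and the rest were kept as they were. For day 14, a cell's most common value above 0 was read as 1 UMI, and 99.5% to 99.6% of values came out whole within 0.05. Day 14 cells had at least 1997 genes, so that day 14 and day 3 also differ in the authors' cell filter.

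Positive cells were split into 10 depth bins, negatives were drawn in the same proportions (seed 1), and UMIs were summed per side. Log2 ratios over genes used a pseudocount of 0.5 CPM and genes that averaged 50 CPM or more over both sides, without the rule genes and the transgenes. Ratios of named genes carry no pseudocount. Shares have Clopper-Pearson and sums exact Poisson intervals at 95%, and ratios exact intervals given their total. PCR duplicates are collapsed by UMIs. The code (Python 3.11.15, numpy 2.4.6, scipy 1.17.1, pandas 2.3.3) was tested on simulated data. Scrublet in scanpy 1.11.5 scored doublets: its own threshold marked 0 cells without A83-01, so it had not worked there, and 1.31% with A83-01. Cells in the top 6% of scores were left out as an alternative only.

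Named genes are the 6 genes of the rule. By rule, genes that met the minimum and were past 1.5-fold the same way in both libraries were added, up to 2 each way. The 2 higher IDs were chosen after their values were seen. Of 16894 Ensembl IDs, the RefSeq gene table (GRCr8) paired 0 with a symbol, so that gene lists and cell type markers planned for sarcomere, pacemaker and other programmes were not applied. Names of the 6 rule genes come with the rule. Promoter windows are RefSeq's, and 4 of the 6 rule genes matched. The members, lists and comparisons were chosen with earlier results of these data known.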

Additional observations from a re-analysis of the deposited data

Results flagged for a closer look

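Myh6, Col1a1 and Col1a2 stood on opposite sides of 0 in positive over matched negative myocytes of the day 14 TBX18 libraries, with counting intervals that exclude 0 in each. The log2 ratio of Myh6 was 0.11 without and -0.0225 with A83-01. That of Col1a1 was 0.28 without and -0.75 with A83-01. That of Col1a2 was 0.44 without and -0.63 with A83-01. The difference between the libraries has no test with 1 library a group, and the collagen values changed sign in part under the stricter myocyte rule.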

How the results depend on the processing

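No paired analysis was possible because each group has 1 library. Of 85 recomputed counts, shares and correlations, 49 stayed within their tolerance (a factor of 1.5 for counts, 0.1 for the correlation, the counting interval for shares) and 36 moved. In what follows the genes past 1.5-fold are those higher and lower without A83-01, with A83-01 and in both libraries, at 24 and 34, 6 and 8, and 0 and 2 as reported. Positives by hTBX18 only gave 49 higher without A83-01, 20 higher with it and 4 higher in both, and shares of positive myocytes of 10.1% and 8.81%. At least 2 transgene UMIs gave 94 higher without A83-01, 87 higher and 27 lower with it, and 20 higher and 11 lower in both. A myocyte sum over 10 times the collagens gave 14 higher without A83-01, 13 higher and 4 lower with it, and 2 higher in both. Leaving out the top doublet scores gave 2 higher in both. A minimum of 20 CPM gave 77 higher and 85 lower without A83-01, 23 and 22 with it, 4 and 4 in both, and an r of 0.38. A minimum of 100 CPM gave 13 higher and 17 lower without A83-01 and 5 lower with it. Weighting all negatives by depth gave 2 higher in both. No depth matching gave 17 lower without A83-01, 14 higher with it, and 4 higher and 4 lower in both. Median-of-ratios scaling gave 3 higher and 13 lower with A83-01 and 5 lower in both. A second draw of negatives, chosen after seeing the data, gave 1 higher in both. Thinning to 5000 UMIs gave shares of 5.98% and 4.69%. The minimum sets how many genes are tested and thinning how many UMIs are read, and for the other settings the cause was not tested.

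Of 180 recomputed ratios of named genes, an addition made after seeing the data, 77 stayed within their counting interval, 100 moved and 3 changed sign from a value whose interval excluded 0. With the stricter myocyte rule these 3 were Col1a1 without A83-01 at -0.093, and Col1a2 at 0.163 and Col3a1 at 0.105 with it. Col3a1 without A83-01, whose interval included 0, ran from -0.14 to 0.26 and was below 0 under 6 of the 9 settings. Tnnt2 ran from -0.32 to -0.14 without and from -0.33 to -0.14 with A83-01, and Actc1 from -0.30 to -0.12 and from -0.51 to -0.19. ENSRNOG00000004583 without A83-01 ran from -1.28 to -0.46, so that it was not past 1.5-fold under each setting. The same holds for ENSRNOG00000017206 without A83-01, which ran from 0.56 to 1.25. Among cells with at least 2 UMIs, the genes higher in both were 13 and those lower in both 17 under median-of-ratios scaling, and from 12 to 20 and from 10 to 11 under the other settings. With most positives at a single UMI, negatives at this depth may carry the virus.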

Other observations

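Transgene UMIs were also found outside the myocyte class. Of 98 collagen-rich cells with an hTBX18 UMI and no A83-01, 27 (27.6%, 19.0 to 37.5) had a ZsGFP UMI, against 59 of 6929 without one (0.851%). With A83-01 these were 18 of 58 (31.0%, 19.5 to 44.5) and 60 of 4764 (1.26%). Cells between the classes, with a myocyte and a collagen sum within a factor of 2, had a transgene UMI in 28 of 223 cells (12.6%, 8.51 to 17.6) without A83-01 and in 39 of 344 (11.3%, 8.19 to 15.2) with it. They were deeper than the myocytes, at medians of 23406 and 24356 UMIs. EGFP was found in 44.7% of myocytes (42.4 to 47.1) of the Adeno-GFP library of day 14 and in 12.6% of its collagen-rich cells (11.6 to 13.7).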
